A study of Homo sapiens with 6 samples.

Results

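The nuclear genes that encode subunits of respiratory chain complexes I to IV were examined in L428 cells, a Hodgkin lymphoma cell line of human origin, treated with an siRNA that targets BATF3. Membership followed from the gene symbol. Members were genes whose array symbol begins with NDUFA, NDUFB, NDUFC, NDUFS or NDUFV (assembly factors named NDUFAF left out), UQCR, COX4I, COX5, COX6, COX7 or COX8, together with CYC1 and the SDH genes of complex II. This gave 65 of the 18244 genes with a probe set of their own. They were 6 catalytic and 30 accessory subunits of complex I, 3 subunits of complex II, 9 of complex III and 17 of complex IV. Both groups were L428 cells that underwent nucleofection, a form of electroporation, with 3 µg of siRNA and were then cultured for 48 h. One group received a Silencer Select siRNA against BATF3 and the other a negative control siRNA, with 3 Affymetrix PrimeView arrays each. BATF3 belongs to the basic leucine zipper transcription factors, and the comparison asks which transcripts differ once it is reduced. A single BATF3 siRNA condition in a single cell line was studied. Whether the 3 arrays of a group stem from separate cultures is not stated in the labels, and the spread behind each p-value may therefore be technical.

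The respiratory chain sits in the inner mitochondrial membrane and passes electrons from NADH and succinate to oxygen, pumping protons that drive ATP synthase. Complex I takes electrons from NADH, complex II from succinate, complex III hands them to cytochrome c and complex IV (cytochrome c oxidase) reduces oxygen. Complexes I, III and IV also hold subunits encoded in mitochondrial DNA, which are not analysed here, and several complex IV subunits have a second gene used in particular tissues such as heart, lung or testis.

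BATF3 itself read 10.87, 10.76 and 10.69 (log2) on the 3 BATF3 siRNA arrays and 11.89, 12.08 and 11.94 on the controls. BATF3 siRNA lowered it to 0.436 of control, a log2 difference of -1.20 (SE 0.095; limma, Benjamini-Hochberg adjusted p = 0.00673). The call was lost in 3 of the alternatives, at -1.16 without BATF3 siRNA array 3, at -1.14 without control array 2 and at -1.11 with array background as a covariate. Of 8 Hodgkin lymphoma markers, 6, including TNFRSF8 (CD30) and CCL17, lay above background on all 6 arrays. CD274 was above it on 2 arrays and CCL22 on none. Of the B cell genes, CD79B was above background on 6 arrays, PTPRC on 3, and MS4A1 and CD79A on none. All 10 markers of T and NK cells, myeloid cells, fibroblasts and epithelium were below it on every array. Background was the brightest GC-matched background probe set of each array, at 6.68 to 7.32. The mean of the background probe sets with 20 to 25 G or C bases was 5.92 and 5.98 on BATF3 siRNA arrays 2 and 3 and 6.46 to 6.49 on the other 4 arrays. The low-background arrays both belong to the BATF3 siRNA group, so background and siRNA cannot be fully told apart. A difference adjusted for this level rests mainly on BATF3 siRNA array 1 against the controls. With this background level as a covariate, 26 of the 65 members' differences moved by more than their within-group SD and 23 turned sign. These counts were not taken over all genes, so they are not read as particular to the members.

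No respiratory chain subunit passed the test. Of the 65 members, 0 had an adjusted p under 0.05 (limma, Benjamini-Hochberg over all genes), against 3 of 18244 genes (0.0164%). At an unadjusted p under 0.05, 0 members were higher after BATF3 siRNA (all genes 3.73%) and 1 member, COX4I2, was lower, which is 1.54% of the members (all genes 3.42%). The 3 BATF3 siRNA arrays all lay above the 3 control arrays for 1 member, UQCRH (1.54% of members, all genes 6.36%). They all lay below for 1 member, again COX4I2 (1.54% of members, all genes 5.78%). The shares of members were under the background shares for each rule. Counts of 0 or 1 among 65 members are too small to set the members apart from all genes.

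The log2 differences (BATF3 siRNA minus control siRNA) of the 65 members were small and lay on both sides of 0. Their median was 0.01, with 36 positive and 29 negative, and their middle 50% ran from -0.037 to 0.043. The split by sign depended on the scaling, with 26 members positive after quantile normalization or cyclic loess and 45 after median centring. Over all genes the median was -0.0027, with 49% positive. The members' differences had an SD of 0.0959, against 0.145 for all genes. A difference beyond 0.2 in either direction was seen in 3 members (4.62%), COX4I2, COX6A2 and NDUFB8, against 14% of all genes. Bright genes vary less on these arrays, so the comparison was repeated among genes above background on all 6 arrays. There the 59 members had an SD of 0.0683 and 1 of them (1.69%) lay beyond 0.2, while the 7806 genes had an SD of 0.127 and 9.79% beyond 0.2. Their median within-group SDs were closer, at 0.0918 for members and 0.109 for all such genes. This filter does not match members and other genes for level. Whether level underlies the smaller SD of the members was not tested.

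**Figure D1:**
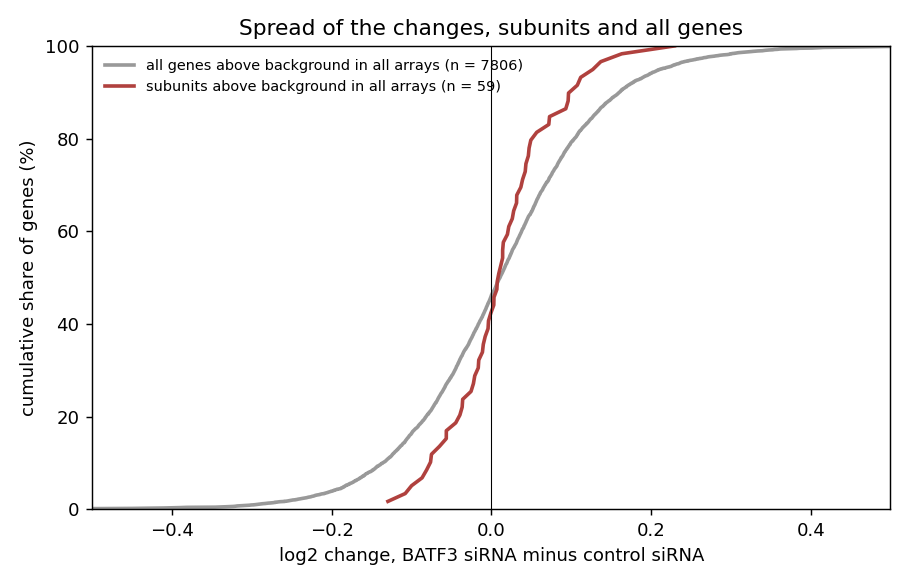
Distribution of log2 differences (BATF3 siRNA minus control siRNA, 3 arrays each) among genes above background on all arrays. Shown are 59 respiratory chain subunits and all 7806 such genes. The members lie closer to 0 than all such genes do, with SDs of 0.0683 and 0.127, and no member passed the limma test. The sets were not matched for level.

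The intervals show how large an unseen difference could be. The 95% confidence interval lay within a 1.41-fold change in both directions for 62 of 65 members (95.4%), against 87.8% of all genes. It lay within a 2-fold change for 65 of 65. Within a 1.19-fold change it lay for 29 members (44.6%, all genes 14.8%), so smaller differences remain undetectable for the others. Among the 59 members above background, the intervals reached at most 1.45-fold upward (NDUFB8) and down to 0.772 of the control level (NDUFB7).

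Promoter windows are shown for a few members because transcription factors shared across the respiratory chain genes are a known feature of this family. Nuclear respiratory factor 1 (NRF1), the ETS factor GABPA and YY1 are well-studied activators of these genes. BATF3 pairs with JUN proteins at AP-1 elements. RefSeq windows (GRCh38.p14, 250 bases before to 50 after the start, 300 in all) were found for 54 of the 65 members and searched on both strands. The NRF1 letters GCGCATGC were in 9 of them (16.7%), against 4.98% of 14488 array genes and 5.89% of array genes with a like share of G and C. The GABPA letters CCGGAAG were in 14 (25.9%, array genes 17.0%, like G and C 22.0%). They were 2 core and 3 accessory subunits of complex I, and 1 of complex II, 3 of III and 5 of IV. The YY1 letters AAGATGGC were in 8 (14.8%, array genes 4.82%, like G and C 6.56%). They were 1 core and 6 accessory subunits of complex I and 1 of complex III. Counts by complex were not set against the number of windows in each. The AP-1 letters TGACTCA were in 0 of 54 windows (array genes 5.38%, like G and C 5.95%). Sequence outside these windows was not searched, and whether BATF3 acts on any member was not tested. The E-box letters CACGTG, where MYC family factors bind, were in 4 (7.41%, array genes 10.9%, like G and C 11.9%). A match is a run of letters and not a shown binding site. The 3 members with both NRF1 and GABPA letters (SDHD, COX5B and COX6A1) and UQCRH, the member whose BATF3 siRNA arrays all lay above the controls, are printed for the 250 bases before the start, plus strand, 5′ to 3′. Capitals mark NRF1 letters (GCGCATGC or GCATGCGC, overlapping in SDHD) and GABPA letters (CCGGAAG or CTTCCGG).
SDHD, chr11:112086623-112086872: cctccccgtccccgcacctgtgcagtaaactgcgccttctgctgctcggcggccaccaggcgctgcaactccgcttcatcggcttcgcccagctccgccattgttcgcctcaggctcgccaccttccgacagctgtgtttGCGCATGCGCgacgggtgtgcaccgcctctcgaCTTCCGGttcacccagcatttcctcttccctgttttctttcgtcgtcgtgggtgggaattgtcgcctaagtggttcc
COX5B, chr2:97645812-97646061: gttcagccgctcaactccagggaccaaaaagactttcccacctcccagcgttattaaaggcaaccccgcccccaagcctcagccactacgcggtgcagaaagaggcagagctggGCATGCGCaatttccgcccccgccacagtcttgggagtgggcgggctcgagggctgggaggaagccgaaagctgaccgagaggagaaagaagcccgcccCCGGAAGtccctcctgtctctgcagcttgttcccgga
COX6A1, chr12:120437863-120438112: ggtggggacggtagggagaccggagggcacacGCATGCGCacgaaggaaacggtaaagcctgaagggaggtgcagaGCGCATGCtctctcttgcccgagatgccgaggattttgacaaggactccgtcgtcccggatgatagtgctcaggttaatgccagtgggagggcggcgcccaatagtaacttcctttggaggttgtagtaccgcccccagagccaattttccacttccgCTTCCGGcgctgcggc
UQCRH, chr1:46303448-46303697: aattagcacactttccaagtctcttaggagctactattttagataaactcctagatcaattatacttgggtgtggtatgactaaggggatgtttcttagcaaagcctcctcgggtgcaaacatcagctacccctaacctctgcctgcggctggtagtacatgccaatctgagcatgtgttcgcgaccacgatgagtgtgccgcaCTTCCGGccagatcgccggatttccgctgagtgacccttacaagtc
In SDHD the overlapping NRF1 letters begin at base -110 and the GABPA letters at base -77, counted from the start site. In COX6A1 NRF1 letters begin at -218 and at -174, and GABPA letters end at -10, close to the start. COX5B holds NRF1 letters from -136 and GABPA letters from -37. The UQCRH stretch holds GABPA letters from -46 and no NRF1 letters. The 9 members with NRF1 letters had log2 differences with a median of 0.003 (range -0.025 to 0.137), and the 45 without had a median of 0.009 (range -0.227 to 0.229). The 8 members with YY1 letters had a median of 0.023 and the 46 without 0.003.

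Across complexes the median log2 difference was 0.02 for the catalytic core of complex I (4 positive, 2 negative), -0.0001 for its accessory subunits (15 and 15) and -0.06 for complex II (1 and 2). It was 0.01 for complex III (5 and 4) and 0.03 for complex IV (11 and 6). In each complex 0 members were called. The complex medians lay within 0.06 of 0. The within-group SD of the per-array median was 0.114 for the core and 0.0386 for the accessory subunits of complex I. It was 0.0849 for complex II, 0.033 for complex III and 0.0323 for complex IV. Each median lay within its SD, but that of complex IV, at 0.0316, nearly equalled it.

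**Figure D2:**
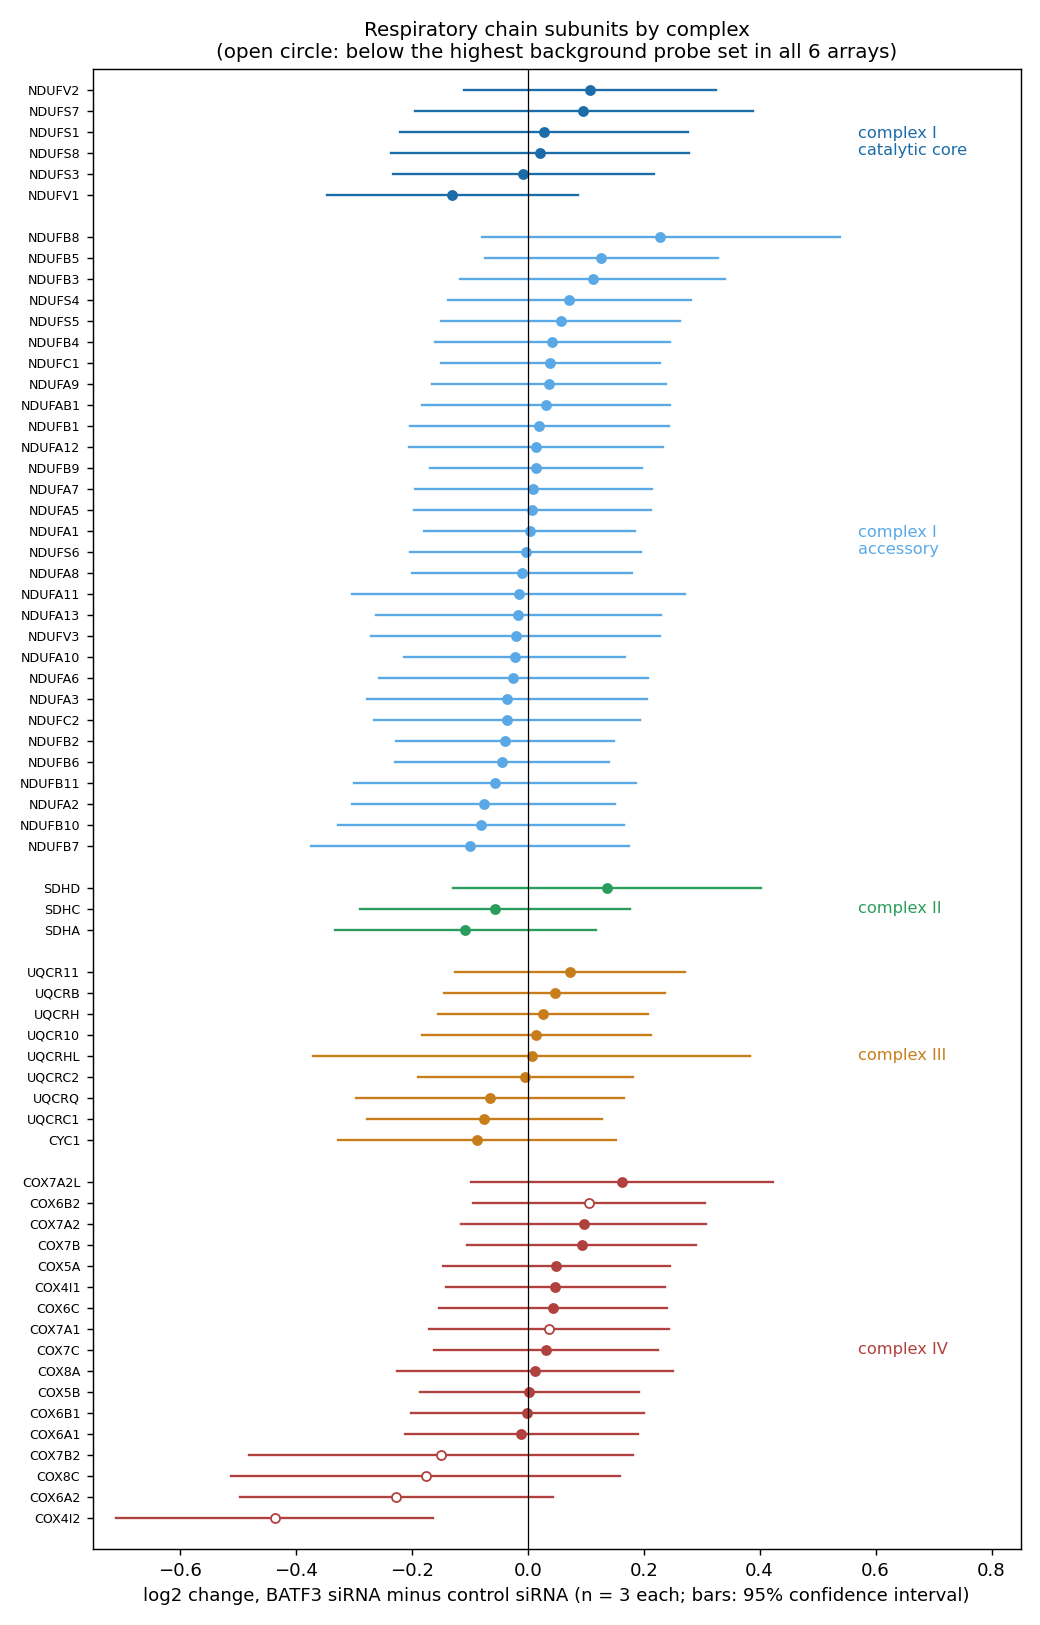
Log2 difference (BATF3 siRNA minus control siRNA) of each of the 65 subunits, grouped by complex, with 95% confidence intervals from the limma fit. COX4I2 at -0.44 is the member whose unadjusted interval does not cross 0, and the complex I, II and III members lie between -0.13 and 0.23.

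The catalytic core of complex I holds the flavin and the iron-sulfur clusters that carry electrons from NADH to ubiquinone. NDUFV1, which binds NADH and the flavin, read 11.24, 11.12 and 11.02 (log2) on the BATF3 siRNA arrays and 11.16, 11.34 and 11.27 on the control arrays. BATF3 siRNA array 1 lay between the control arrays, so the groups overlapped. The log2 difference was -0.13 (SE 0.0962, limma adjusted p = 0.843), and -0.029 with array background as a covariate. NDUFV2, its iron-sulfur partner, read 10.77, 10.73 and 10.65 after BATF3 siRNA and 10.48, 10.74 and 10.60 in controls, a difference of 0.11 (SE 0.0967, limma adjusted p = 0.869). The low value was control array 1, and control array 2 reached the BATF3 siRNA values. NDUFV1 and NDUFV2 together form the NADH-oxidising tip of the enzyme.

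The 4 other core subunits lay nearer to 0 or varied more. NDUFS7, an iron-sulfur subunit near the ubiquinone site, read 8.76, 8.55 and 8.30 after BATF3 siRNA and 8.60, 8.36 and 8.36 in controls. BATF3 siRNA arrays 1 and 3 were the highest and the lowest of all 6, and the difference of 0.10 had an SE of 0.130. It was 0.299 with array background as a covariate, -0.016 without BATF3 siRNA array 1 and -0.047 with the most variable probe set. NDUFS1, the large iron-sulfur subunit, differed by 0.03, NDUFS8, another iron-sulfur subunit, by 0.02, and NDUFS3, a core subunit of the ubiquinone-binding module, by -0.0077. The core differed between arrays of the same siRNA by as much as between the siRNAs. Its median against the control mean was 0.0758, 0.0856 and -0.1109 on BATF3 siRNA arrays 1 to 3 and -0.0868, 0.1319 and -0.0515 on control arrays 1 to 3.

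Accessory subunits of complex I surround the core and are needed for its assembly and stability. The largest positive difference was in NDUFB8, a membrane arm subunit whose protein is often used to track assembled complex I. It read 10.64, 11.12 and 11.08 after BATF3 siRNA and 10.83, 10.60 and 10.72 in controls. BATF3 siRNA arrays 2 and 3 lay above all controls, and array 1 lay below control arrays 1 and 3. The log2 difference was 0.23 (SE 0.137, 95% confidence interval -0.079 to 0.538, limma adjusted p = 0.809). No alternative called it, and it was 0.385 without BATF3 siRNA array 1, which stood at -0.467 relative to the mean of the other 2 arrays of its group. Arrays 2 and 3 are also the arrays with low background, and with array background as a covariate the NDUFB8 difference was -0.06. A second probe set, shared by NDUFB8 and SEC31B, differed by 0.03.

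NDUFB5 and NDUFB3, both of the membrane arm, followed with 0.13 and 0.11. NDUFB5 read 11.10, 11.14 and 11.26 after BATF3 siRNA and 11.10, 11.03 and 10.98 in controls, so that the groups met at BATF3 siRNA array 1 and control array 1. NDUFB5 kept its sign in all 17 alternatives, with differences from 0.07 to 0.178, while NDUFB3 was -0.050 with the most variable probe set. On the negative side NDUFB7 differed by -0.0999, NDUFB10 by -0.0811 and NDUFA2 by -0.0762. NDUFB7 and NDUFB10 are membrane arm subunits with paired cysteines, and NDUFA2 belongs to the NADH-binding arm. The values for NDUFB7 were 10.46, 10.32 and 10.23 after BATF3 siRNA and 10.37, 10.67 and 10.27 in controls. Control array 2 stood highest there, 0.355 above the mean of the other 2 controls, and the corresponding gap for NDUFB10 was 0.300. Without that array the differences turned positive, to 0.018 for NDUFB7 and 0.019 for NDUFB10. With array background as a covariate NDUFB7 was at 0.018, and NDUFA2 turned to 0.072. NDUFA11 and NDUFA13, at -0.016 each, stood at 0.210 and 0.187 with that covariate. Several accessory subunits barely differed at all, among them NDUFA1 (12.75 ± 0.021 against 12.74 ± 0.020, log2, SD, n = 3 each) and NDUFS6 (12.48 ± 0.065 against 12.49 ± 0.074).

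Complex II oxidises succinate and is at once an enzyme of the tricarboxylic acid cycle. SDHA, the flavoprotein that binds succinate, read 10.48, 10.37 and 10.33 after BATF3 siRNA and 10.38, 10.65 and 10.47 in controls. The groups overlapped, with control array 2 the highest, and the difference was -0.11 (SE 0.0999, limma adjusted p = 0.872). A pair of further SDHA probe sets that also match SDHA pseudogenes differed by -0.178 and -0.106. SDHC, a membrane anchor subunit, differed by -0.06. SDHD, the other anchor, read 9.64, 10.01 and 9.90 after BATF3 siRNA and 9.64, 9.86 and 9.63 in controls, a difference of 0.14 (SE 0.118, limma adjusted p = 0.863). BATF3 siRNA arrays 2 and 3, the low-background arrays, were its highest, and with array background as a covariate the difference was -0.06. Its other 4 probe sets differed by -0.070 to 0.005, and the probe set used is of a type that can cross-hybridise, so the SDHD value is uncertain. Probe sets of that type also stand for other members, among them SDHA, NDUFB5, CYC1, COX7B and UQCRB.

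Complex III passes electrons from ubiquinol to cytochrome c. UQCRH, the acidic hinge subunit at the cytochrome c docking side, read 12.98, 13.00 and 13.00 after BATF3 siRNA and 12.97, 12.96 and 12.96 in controls. All 3 BATF3 siRNA arrays lay above all 3 controls, but by a log2 difference of 0.03 (SE 0.0803, limma adjusted p = 0.969), a 1.018-fold ratio. With 3 arrays against 3 the exact two-sided permutation p was 0.1, which is the minimum. UQCRHL, a near copy of UQCRH whose signal cannot be told apart from it with certainty, read 8.28 to 8.75 after BATF3 siRNA and 8.28 to 8.87 in controls. Its difference was 0.01 with the widest SE of any member, 0.168.

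The cytochrome and a core protein of complex III had small negative differences. CYC1, which carries the haem of cytochrome c1, read 12.00, 11.96 and 11.86 after BATF3 siRNA and 11.89, 12.22 and 11.97 in controls, a difference of -0.0868 (SE 0.107). Control array 2 was 0.288 above the other 2 controls, and without it the difference was 0.009. UQCRC1, a core protein, differed by -0.0750 (0.026 with array background as a covariate) and UQCRQ, a small ubiquinone-binding subunit, by -0.0650. UQCR11 and UQCRB, both small subunits, differed by 0.07 and 0.05. Adjusted p-values (limma) were 0.913 to 0.946 for these 4 genes.

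Complex IV holds the member with the smallest p-value. COX4I2 is the alternative form of the large nuclear subunit COX4I1, known from lung and from low oxygen. It read 5.19, 5.41 and 5.25 after BATF3 siRNA and 5.47, 5.88 and 5.80 in controls. All BATF3 siRNA arrays lay below all control arrays, and all 6 values lay below background. The log2 difference was -0.44 (SE 0.122, 95% confidence interval -0.710 to -0.163), with an unadjusted limma p of 0.00554 and an adjusted p = 0.493. The adjusted p ran from 0.0997 to 0.954 over the 17 alternatives, and the difference from -0.558 to -0.356. The exact permutation p was 0.1. In the same comparison 203 genes had a smaller p. Of the 9174 genes above background on no array, 4.32% had an unadjusted p under 0.05 in this direction and 46 (0.501%) had a more negative difference. Its ubiquitous partner COX4I1 read 12.86, 12.84 and 12.82 after BATF3 siRNA and 12.84, 12.72 and 12.81 in controls, a difference of 0.05 (limma adjusted p = 0.943).

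The other tissue-restricted forms split from their partners in the same way with regard to background. COX6A2 and COX7A1, the heart and skeletal muscle forms, and COX6B2, COX7B2 and COX8C, described mainly from testis, were below background on 6 of 6 arrays, as was COX4I2. Their partners COX6A1, COX7A2, COX7A2L, COX6B1, COX7B and COX8A were above it on 6 of 6. A value below background does not separate a low level from none. These 6 forms were the only members under background on any array.

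COX6A2 had the next most negative difference of the family. It read 6.85, 6.39 and 6.66 after BATF3 siRNA and 6.85, 6.83 and 6.91 in controls. BATF3 siRNA array 1 equalled the controls while arrays 2 and 3, the low-background arrays, were lower. The difference was -0.23 (SE 0.120, limma adjusted p = 0.770), and -0.008 with array background as a covariate. Among the other dim forms COX8C differed by -0.18, COX7B2 by -0.15, COX6B2 by 0.11 and COX7A1 by 0.04, all with overlapping groups.

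**Figure D3:**
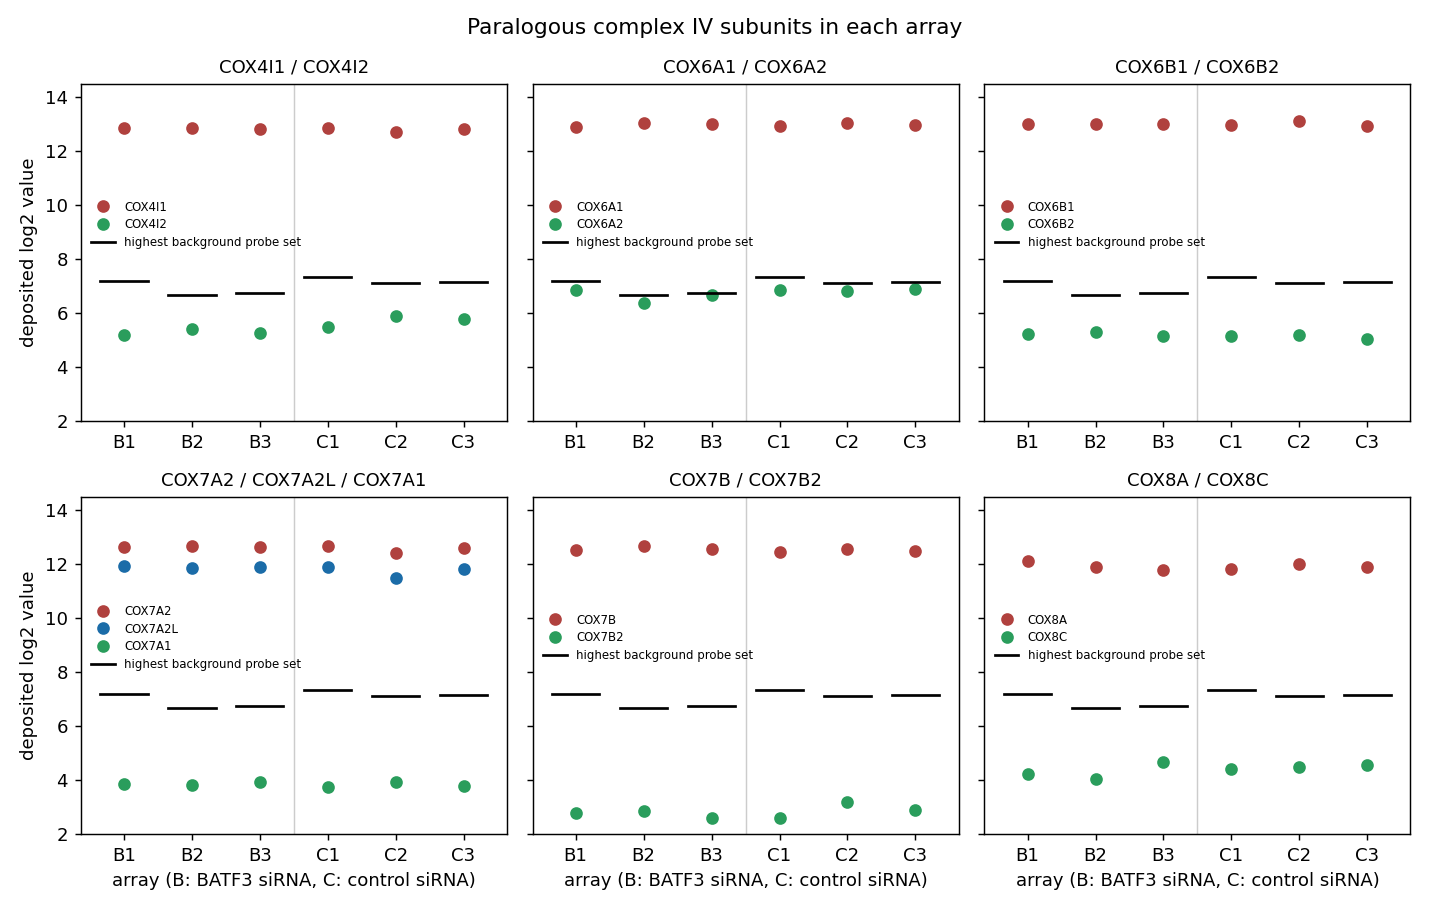
Log2 value of each paired complex IV form on each of the 6 arrays (3 BATF3 siRNA, 3 control siRNA), with the background level of the arrays. The ubiquitous forms lie above background on all 6 arrays and the tissue-restricted forms below it, in both groups. Heights of different probe sets are not comparable with each other, only with background.

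Among the ubiquitous complex IV genes the largest difference was in COX7A2L, a relative of COX7A2 that joins complexes III and IV into supercomplexes. It read 11.94, 11.87 and 11.91 after BATF3 siRNA and 11.90, 11.50 and 11.82 in controls. The difference of 0.16 (SE 0.116, limma adjusted p = 0.838) rested on control array 2, and without that array it was 0.041. COX7A2 showed the same pattern, with 12.42 on control array 2 and 12.60 to 12.69 on the other 5, and differed by 0.10. COX7B, a small structural subunit, differed by 0.09. COX8A (0.01), COX6A1 (-0.01), COX6B1 (-0.0006) and COX5B (0.003) lay close to 0. With array background as a covariate COX8A was at 0.168 and COX6A1 at -0.091. The gene formerly called NDUFA4, now assigned to complex IV, carries the symbol COXFA4 here and so fell outside the symbol rule. It differed by 0.04 (limma adjusted p = 0.954), and its relative COXFA4L2, never above background, by 0.08 (limma adjusted p = 0.952).

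Members differed between arrays of the same siRNA by as much as between the siRNAs. Measured as the members' median distance from each gene's 6-array mean, the BATF3 siRNA arrays stood at 0.03, 0.01 and -0.03 and the control arrays at -0.01, 0.04 and -0.03. BATF3 siRNA array 3 was the lowest array for 24 of 65 members (36.9%, all genes 18.5%), and for 15 of the 30 accessory subunits of complex I. BATF3 siRNA array 1 was the highest for 20 members (30.8%, all genes 18.0%), and control array 2 for 22 (33.8%, all genes 27.3%). On control array 3 only 15 members (23.1%) were above their own mean, against 49.6% of all genes. Within the BATF3 siRNA group, NDUFA11, NDUFS7 and NDUFA13 were high on array 1 (0.384, 0.336 and 0.328 above the other 2), and low on array 3 (-0.399, -0.356 and -0.216). The cause of these array differences was not tested.

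**Figure D4:**
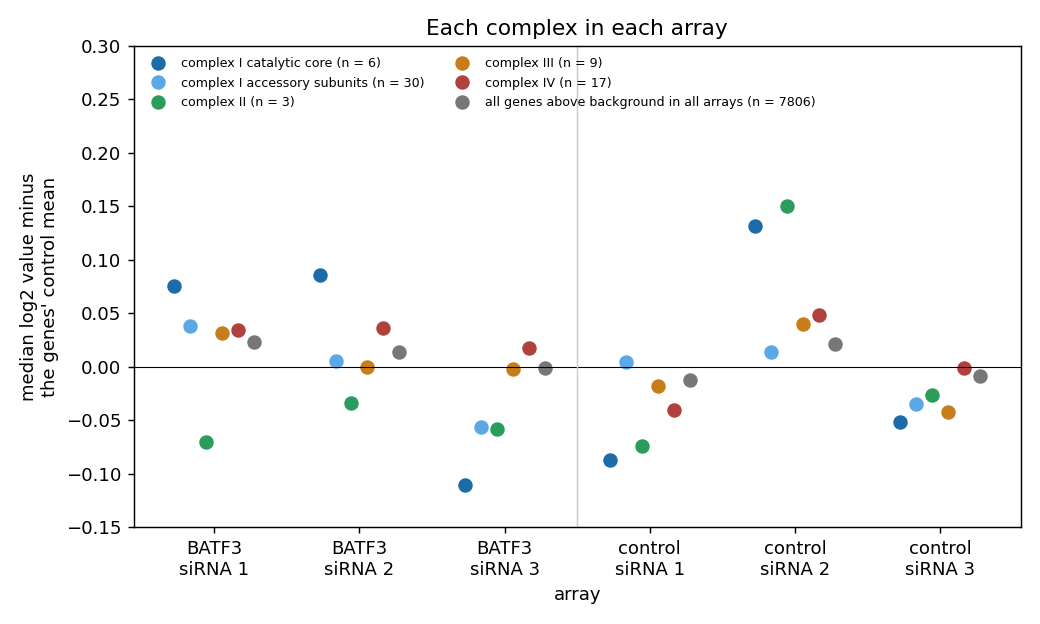
Members' median log2 distance from the control mean on each of the 6 arrays, by complex. Arrays of the same siRNA differ as much as the 2 groups do. For the complex I core, BATF3 siRNA array 3 stands at -0.1109 and control array 2 at 0.1319.

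Probe sets of the same gene give a further reading. The 65 members had 140 single-gene probe sets, and 38 members had several. Among probe sets above background on all 6 arrays, 28 members had several, the signs of all their differences matched in 17, and the range between them had a median of 0.051 and reached at most 0.207 (SDHD). The lowest difference among these 108 probe sets was -0.178 and the highest 0.229.

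Genes that work with the respiratory chain gave the same count of calls. Over 7 lists of 189 genes in all, 0 were called (limma adjusted p, all genes 0.0164%). At an unadjusted p under 0.05 there were 0 higher (all genes 3.73%) and 2 lower (all genes 3.42%). The 19 genes of ATP synthase, which uses the proton gradient, had a median log2 difference of 0.01 (11 positive, 8 negative), from ATP5F1C at 0.08 to ATP5F1D at -0.11 by smallest p. The 45 assembly factors had a median of 0.03 (26 and 19). Of these NDUFAF5, a complex I assembly factor, differed by 0.19 (limma adjusted p = 0.709), and ACAD9, another, by -0.23 (limma adjusted p = 0.622). ACAD9 read 7.73, 7.79 and 7.68 after BATF3 siRNA and 7.99, 7.99 and 7.90 in controls, without overlap. With the mean of its probe sets the ACAD9 difference was -0.126. The NDUFAF5 groups did not overlap either. Of the 45 assembly factors, 6 lay higher without overlap (all genes 6.36%) and 2 lower (all genes 5.78%).

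The regulator list, which holds the transcription factors and coactivators of respiratory genes, had 17 genes with a median of 0.02 (12 and 5). Its smallest p-values were for PPARGC1A, a coactivator of mitochondrial biogenesis that lay below background on every array, at 0.24 (limma adjusted p = 0.732), and for MYC at -0.13 (limma adjusted p = 0.822). MYC read 10.59 to 10.67 after BATF3 siRNA and 10.71 to 10.81 in controls. The 77 mitochondrial ribosomal protein genes, whose products translate the subunits encoded in mitochondrial DNA, had a median of 0.02 (48 and 29), with MRPL30 at 0.16 and MRPS17 at -0.22 (limma adjusted p = 0.640 for MRPS17). Tricarboxylic acid cycle genes (12 measured) had a median of -0.03 (6 and 6), with citrate synthase CS at 0.14 and OGDH at -0.20. Genes for the mobile carriers cytochrome c and ubiquinone (10) had a median of 0.01 (5 and 5), with COQ3 at 0.13 and PDSS2 at -0.17, both in ubiquinone synthesis.

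Because COX4I2 is known to respond to low oxygen, hypoxia-responsive genes were set beside it. The 9 measured had a median log2 difference of 0.03 (7 positive, 2 negative), and 3 of them (33.3%) lay beyond 0.2 in either direction, against 14% of all genes. The range ran from -0.24 (NDRG1, limma adjusted p = 0.900) to 0.50 (ADM, limma adjusted p = 0.798), both named after their values were seen. NDRG1 lay below background on every array, and ADM lay above it only on BATF3 siRNA array 3. Of the 3 genes beyond 0.2, only ANKRD37 was above background on all 6 arrays. ADM, which encodes adrenomedullin, read 6.97, 6.31 and 6.95 after BATF3 siRNA and 6.80, 5.57 and 6.36 in controls, with overlap and a low control array 2. ANKRD37 differed by -0.24 (limma adjusted p = 0.738) and EGLN3, below background on every array, by 0.17 (-0.042 with the most variable probe set). ANKRD37 read 11.28 on BATF3 siRNA array 2 and 11.56 to 11.79 on the others, and with array background as a covariate its difference was -0.02.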

How the data were processed

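The authors' deposited table held 1 log2 value per probe set and array, used as deposited. The range of the values points to base 2. The affy package is named, with no version, per the submitters' processing notes, and no source used here gives the background correction or normalization. Normalized arrays hide a shift common to all transcripts. Of 49495 probe sets (102 of them controls), 45278 list 1 gene, 1333 several and 2782 none in the platform annotation. Each gene was read by its single-gene probe set with the highest mean, and all 65 members matched RefSeq (GRCh38.p14) by Entrez identifier.

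The 3 BATF3 siRNA arrays were compared with the 3 control arrays by lmFit and eBayes of limma 3.58.1 (R 4.3.3; two-sided tests), adjusted by Benjamini-Hochberg over 18244 genes and called at an adjusted p under 0.05. Residual degrees of freedom were 4 and total 9.305, and the median SE was 0.107. The number of arrays limits the precision. Tried besides were other normalizations, array weights, a replicate block, array background as a covariate, an intensity trend with robust prior, other probe sets per gene, filters on dim genes and leaving out each array.

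The text names BATF3, all core complex I and complex II members, all paired complex IV forms, the 3 largest differences in each direction in the other complexes, and the smallest p in each direction in each related list. NDUFA1, NDUFS6, NDUFA11, NDUFA13, COX5B, UQCRHL, COXFA4 and COXFA4L2 were named after their values were seen. The members and lists were chosen with earlier results of these data known.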

Additional observations from a re-analysis of the deposited data

How the results depend on the processing

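No subunit was called in any of the 17 alternatives (smallest adjusted p 0.0997, with limma array weights). At an unadjusted p under 0.05 there was 1 of 65 as reported (1304 of 18244 genes) and 5 with array weights (3312 genes). There were 3 without BATF3 siRNA array 1 (1929 genes) and 2 without BATF3 siRNA array 3 (852 genes). With either filter on dim genes there were 0 (751 of 8490 and 818 of 9122 genes), and each of the others gave 1. The median over all subunits stayed between -0.0106 and 0.0291, and the number of positive members ran from 26 (quantile normalization and cyclic loess) to 45 (median centring, and without control array 2). The same sign in every setting was found for 15 members, 11 of them above background. That share was not taken over all genes. Over all genes, 3 were called. The count was 0 with array background as a covariate (1011 at an unadjusted p under 0.05), 25 with array weights, 8 among genes above background in 3 arrays, 9 among genes above the median level, 12 with an intensity trend and robust prior and 5 with the most variable probe set. Leaving out an array gave 0 to 2 calls, with 0 (limma) without BATF3 siRNA array 3 (852 with unadjusted p under 0.05), and likewise 0 without control array 2 (1446 with unadjusted p under 0.05). BATF3 was -1.114 with the covariate (limma adjusted p = 0.25) and -1.245 to -1.141 without single arrays, with limma adjusted p = 0.0688 without BATF3 siRNA array 3 and 0.0648 without control array 2. The cause was not tested. Same-numbered arrays did not all deviate together (correlations 0.029, 0.146 and -0.025 over all genes, and -0.144, 0.082 and 0.374 over the members), so numbers were not taken to pair them. With the replicate block 3 genes and 0 members were called, and the members' median was 0.0074.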
